A study of Mus musculus with 6 samples.

Results

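Gene-flanking peaks are stretches of open chromatin whose midpoint lies more than 1 kb and at most 10 kb from the nearest end of a protein-coding gene. They were picked by position alone from the RefSeq gene table of the mm10 build, and 10709 of the 42632 peaks of the consensus list met the rule (25.1%). Of these, 6355 (59.3%) lay inside a gene body and 4354 lay outside any coding gene. Each peak is 700 bp wide and was linked to the coding gene with the nearest end, a link by distance that says nothing of which gene a peak serves. The peaks were linked to 7053 of 21900 coding genes, with 4600 of those genes holding 1 such peak, 1628 holding 2 and 825 holding 3 or more. For 555 of the peaks inside a gene body, the gene they lay in was not the gene whose end was nearest.

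The counts came from bulk ATAC-seq, an assay in which a transposase cuts and tags DNA where chromatin is open, of long-term haematopoietic stem cells (LT-HSCs) taken from the marrow of C57BL/6 mice (age 10 to 16 weeks), with 3 biological replicates a group. The cells were sorted as Lin- Sca1+ cKit+ CD34- Flt3-. The 3 unconfined libraries came from cells held in suspension for 16 h before transposition. The 3 confined libraries came from cells held in suspension for 13 h, left for 0.5 h to attach to fibronectin-coated glass, pressed for 2 h under a ceiling on 5 µm pillars and then lifted from the glass with a dissociation reagent. Attachment, detachment and confinement therefore differ together between the groups and cannot be told apart. A batch number in the labels links 1 unconfined library with 1 confined library, which gives 3 same-numbered pairs.

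As background, the DNA next to a gene's start holds its promoter, where transcription begins, while DNA a few kb away, inside introns or beyond the gene, holds a mix of enhancers, alternative promoters and starts of noncoding RNAs. Enhancers in blood stem cells are bound by factors such as GATA2, RUNX1 and ETS family members and tend to be open in fewer cell types than promoters. Many promoters lie in CpG islands, where the dinucleotide CG, rare in most of the genome because methylated cytosine is lost over evolution, has been kept. Such promoters are open in most cell types.

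Annotated transcription starts were looked up next. The rule measures distance from gene ends, and these include gene starts. A lower share of starts in flanking than in gene-end peaks thus follows in part from the rule. A RefSeq start (GRCm38.p6, the assembly that mm10 names) lay within 1018 of the flanking peaks (9.51%), against 65.4% of the peaks within 1 kb of a gene end and 4.35% of the peaks beyond 10 kb. Of the 1018, 899 lay inside a gene body and 119 outside. They include alternative starts of coding genes and starts of noncoding RNAs. The 250 bases before the start are shown for 6 noncoding RNA genes whose starts lay in flanking peaks outside gene bodies, because they span the range of CpG content along which the confined and unconfined libraries differed (below, in the account of annotated starts). They are the 3 CpG-rich and the 3 CpG-poor starts with the highest unconfined level among 45 candidates, read 5′ to 3′ on the strand of the noncoding gene, with each CG in capitals.
Snhg8 start, chr3:123508337-123508586, minus strand, CpG-rich: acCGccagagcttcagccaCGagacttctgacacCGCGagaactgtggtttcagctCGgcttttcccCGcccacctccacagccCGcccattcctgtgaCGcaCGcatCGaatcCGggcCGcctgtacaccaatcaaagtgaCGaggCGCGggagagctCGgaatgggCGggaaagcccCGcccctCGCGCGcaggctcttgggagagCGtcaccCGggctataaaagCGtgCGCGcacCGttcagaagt
Gm38882 start, chr6:117879383-117879632, plus strand, CpG-rich: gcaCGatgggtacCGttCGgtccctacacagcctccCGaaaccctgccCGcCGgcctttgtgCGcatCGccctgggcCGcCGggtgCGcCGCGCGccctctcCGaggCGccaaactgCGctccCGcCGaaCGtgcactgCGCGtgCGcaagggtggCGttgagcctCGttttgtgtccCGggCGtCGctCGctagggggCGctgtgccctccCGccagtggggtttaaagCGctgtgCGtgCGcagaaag
1700113A16Rik start, chr3:88177786-88178035, minus strand, CpG-rich: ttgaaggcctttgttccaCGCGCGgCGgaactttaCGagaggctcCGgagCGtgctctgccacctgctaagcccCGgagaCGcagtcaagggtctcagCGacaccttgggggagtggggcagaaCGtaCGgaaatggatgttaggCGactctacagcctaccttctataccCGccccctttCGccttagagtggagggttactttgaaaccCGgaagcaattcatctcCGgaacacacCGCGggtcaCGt
Mir22hg start, chr11:75461289-75461538, plus strand, CpG-poor: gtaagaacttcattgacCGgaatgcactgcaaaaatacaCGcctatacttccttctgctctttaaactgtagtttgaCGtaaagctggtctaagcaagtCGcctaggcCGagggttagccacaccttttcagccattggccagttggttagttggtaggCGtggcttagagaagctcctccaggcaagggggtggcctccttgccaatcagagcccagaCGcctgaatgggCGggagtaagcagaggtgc
Gm13842 start, chr5:116029242-116029491, minus strand, CpG-poor: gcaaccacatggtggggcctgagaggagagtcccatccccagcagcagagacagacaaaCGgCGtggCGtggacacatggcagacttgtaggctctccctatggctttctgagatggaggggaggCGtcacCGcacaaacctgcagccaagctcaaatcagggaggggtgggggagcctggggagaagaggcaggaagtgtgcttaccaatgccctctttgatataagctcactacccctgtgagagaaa
Gm39087 start, chr7:126621519-126621768, plus strand, CpG-poor: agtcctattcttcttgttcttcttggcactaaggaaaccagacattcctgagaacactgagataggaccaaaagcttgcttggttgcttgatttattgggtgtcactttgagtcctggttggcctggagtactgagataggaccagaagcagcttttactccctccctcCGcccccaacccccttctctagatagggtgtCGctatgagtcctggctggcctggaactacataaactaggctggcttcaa

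The CpG ratio is the number of CG dinucleotides in a window over the number its C and G content would give, and windows over 0.6 were called CpG-rich. The window before Gm38882 held 34 CG in 250 bases and that before Snhg8 held 27, while the window before Gm13842 held 5 and that before Gm39087 held 2. The Snhg8 window, from the host gene of small nucleolar RNAs, held 4 matches to GGGCGG, the GC box that SP and KLF factors bind. The Gm38882 window held a match to none of the 6 motifs searched, although it held the most CG. The Mir22hg window, from the host transcript of the microRNA miR-22, held a GC box, a match to CCGGAA (an ETS core) and 2 to CCAAT. Both strands were searched, and a match is a run of letters and not a binding site.

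Among windows whose start lay in a flanking peak (1205 windows), the median CpG ratio was 0.735, against 0.802 for starts in gene-end peaks, 0.429 for starts in peaks beyond 10 kb and 0.240 for starts in no peak. Inside gene bodies the median was 0.749 and outside it was 0.454. GGGCGG was present in 61.7% of these windows and in 35.7% of all 32841 windows of the same length. CCGGAA was present in 25.1% against 14.9%, and CACGTG, the E-box of MYC and USF factors, in 11.0% against 7.15%. CCAAT was present in 33.9% against 37.4%, and AGATAA, the core that GATA factors bind, in 6.14% against 11.2%. TGTGGT, a core of RUNX sites, was present in 12.8% against 16.8%. The windows of open flanking starts thus carried the 3 motifs that contain CG at a higher share than the whole table and the other 3 at a lower share. These windows were also richer in G and C (median 61.3%, against 52.7% for the whole table), and the part of base composition was not tested.

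The 6 libraries differed in depth and in shape before any group is compared. Summed over peaks, unconfined libraries 1 to 3 held 304898, 1229478 and 983863 counts, and confined libraries 1 to 3 held 340922, 221390 and 128257. A flanking peak had a median of 5, 22 and 14 counts unconfined and of 7, 5 and 3 confined, so single peaks were thinly counted in most libraries. Across the flanking peaks, log2 CPM (counts divided by the library's total and set to a common scale) correlated at 0.678 to 0.799 between unconfined libraries and at 0.424 to 0.504 between these and confined library 1. Confined libraries 2 and 3 stood apart: their correlations with the unconfined libraries were between -0.0282 and 0.0550, that with each other was 0.0761, and those with confined library 1 were 0.0905 and 0.0188. These correlations share library depth among their points and are given as a description. The ranking of peaks in confined libraries 2 and 3 was thus barely shared with any other library, and results are given below for each library and with confined library 1 alone standing for its group.

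The defining markers of the sorted cells and of other cells were read from peaks within 10 kb of each gene's ends. Of 10 stem and progenitor markers 8 had a peak (Ly6a, which encodes the sort marker Sca1, and Tek had none), at 22.5 to 24.5 CPM per peak unconfined and 21.1 to 23.6 confined. The summed level of B cell markers (9 of 13 genes with a peak) was 13.2 to 17.2 CPM per peak unconfined and 19.0 to 23.6 confined, and that of stromal and endothelial markers (11 of 15) was 13.8 to 16.6 and 20.2 to 26.8. Granulocyte and monocyte markers (11 of 20) were at 18.7 to 23.4 and 19.6 to 25.4, erythroid and megakaryocyte markers (13 of 18) at 26.7 to 29.4 and 21.1 to 27.3, and T and NK cell markers (10 of 19) at 18.7 to 24.9 and 20.2 to 25.8. Genes with no peak included Ms4a1, Cd3e, Elane, Hba-a1 and Lepr. In each confined library the B cell and stromal values moved toward the library's average peak, and the part of other cells in the results was not tested.

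In unconfined cells the flanking peaks formed the middle step of a fall in accessibility away from genes. The genome span 1 to 10 kb from gene ends held 25.3 peaks per Mb inside gene bodies and 20.2 outside, against 143.9 within 1 kb and 14.8 and 7.38 beyond 10 kb. The level of a class is its mean count per peak divided by the mean over all peaks of the library, so 1 is the average peak. Flanking peaks had a level of 0.882, 0.917 and 0.865 in unconfined libraries 1 to 3. Gene-end peaks had 1.56, 1.46 and 1.63, and peaks beyond 10 kb had 0.757, 0.792 and 0.727. The 3 classes did not overlap among the unconfined libraries.

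In confined cells this step was flatter. Flanking peaks had a level of 0.975, 1.01 and 1.03 in confined libraries 1 to 3, each above every unconfined library. Gene-end peaks had 1.17, 0.905 and 0.907, each below every unconfined library, and peaks beyond 10 kb had 0.919, 1.04 and 1.03. Confined library 1 kept the unconfined order of the 3 classes, with smaller gaps. In confined libraries 2 and 3 the gene-end peaks had the lowest level of the 3.

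**Figure D1:**
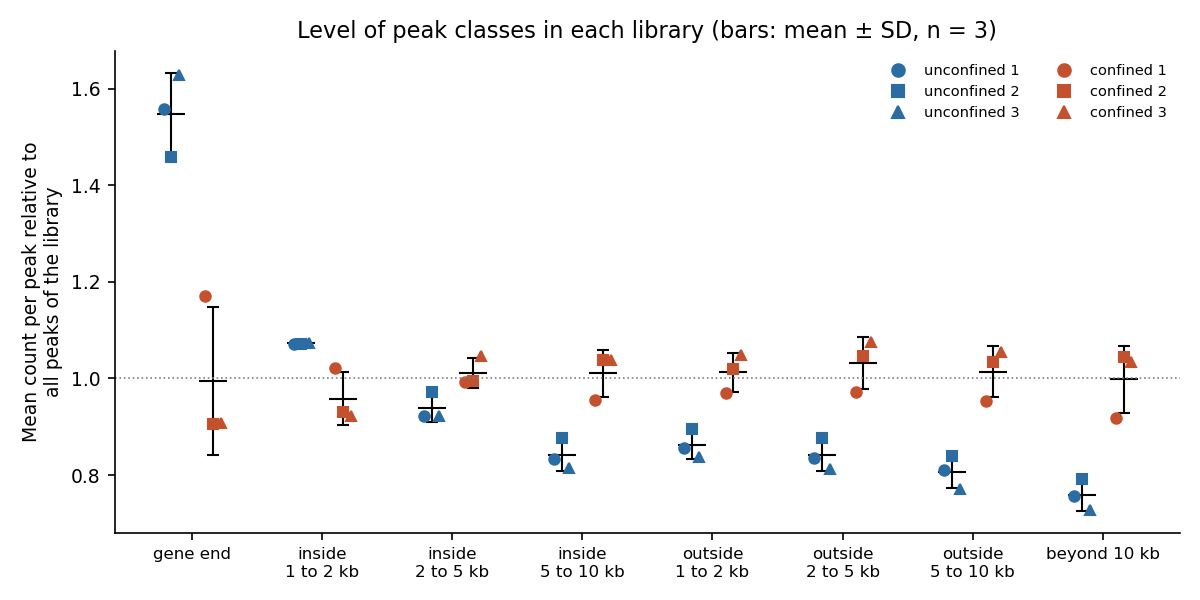
Level of each peak class (mean count per peak relative to all peaks of that library, vertical axis) for gene-end peaks, flanking peaks by side and distance, and peaks beyond 10 kb. Each point is 1 library, blue unconfined and red confined, and black bars are mean ± SD of 3 libraries. The unconfined points fall from 1.46 or more at gene ends to under 1 in most flanking classes, while the confined points of all the classes drawn lie between 0.905 and 1.17.

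As a share of all counts in peaks, flanking peaks took 22.2%, 23.0% and 21.7% unconfined against 24.5%, 25.5% and 26.0% confined. The means were 22.3% ± 0.668 (SD, n = 3) and 25.3% ± 0.753 (SD, n = 3), a difference of 3.01 percentage points. The groups did not overlap, and each of the 3 same-numbered pairs was higher in the confined library (exact permutation p = 0.1, two-sided, the smallest that 3 against 3 allow; 0.12 adjusted over 6 share comparisons). The difference is therefore larger than the spread between replicates, but the design cannot bring it under 0.05. With confined library 1 alone it was 2.18 points. In bulk samples, fewer open cells and less opening per cell cannot be told apart.

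The difference came more from outside gene bodies than from inside. Outside, the share was 8.47% ± 0.330 unconfined and 10.4% ± 0.519 confined (SD, n = 3 each), and with confined library 1 alone the difference of 1.95 points became 1.37. Inside, it was 13.8% ± 0.347 and 14.9% ± 0.241. Groups overlapped in neither case, and both exact permutation tests gave p = 0.1. The gap between inside and outside was tested on its own, as the difference in mean log2 CPM over tested peaks within each library. Inside minus outside was 0.05, 0.11 and 0.13 unconfined against -0.05, -0.08 and -0.14 confined, a shift of -0.19 with no overlap (exact permutation p = 0.1). Among tested peaks, those inside genes were thus the higher of the 2 kinds in each unconfined library and the lower in each confined one. Over all flanking peaks, the level in confined library 1 was 0.983 inside and 0.964 outside, so inside stayed the higher kind there.

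Distance from the gene end ordered the difference. At 1 to 2 kb (2181 peaks) the share was 5.12% ± 0.0496 unconfined and 5.00% ± 0.119 confined, with overlapping groups (exact permutation p = 0.3). At 2 to 5 kb (3904 peaks) it was 8.22% ± 0.272 and 9.34% ± 0.345, and at 5 to 10 kb (4624 peaks) 8.96% ± 0.352 and 11.0% ± 0.547, both without overlap (exact permutation p = 0.1). The first step held opposite parts: inside genes at 1 to 2 kb the share was 3.63% ± 0.00340 unconfined and 3.24% ± 0.184 confined, lower in each pair, while outside genes it was 1.50% ± 0.0518 and 1.76% ± 0.0690, higher in each pair (exact permutation p = 0.1 for both). Without the peaks that hold an annotated start, the inside share at 1 to 2 kb was 2.46% ± 0.0547 and 2.51% ± 0.0546 and the groups overlapped (exact permutation p = 0.4).

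At the limits of the rule the levels ran on smoothly. Peaks at 900 to 1000 bp had mean levels of 0.964 unconfined and 0.982 confined, and peaks at 1000 to 1100 bp had 0.971 and 0.965. Peaks at 9000 to 10000 bp had 0.821 and 1.02, and peaks at 10000 to 11000 bp had 0.788 and 1.01. The lower limit falls where the 2 groups have about the same level, and the upper limit falls on a plateau.

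**Figure D2:**
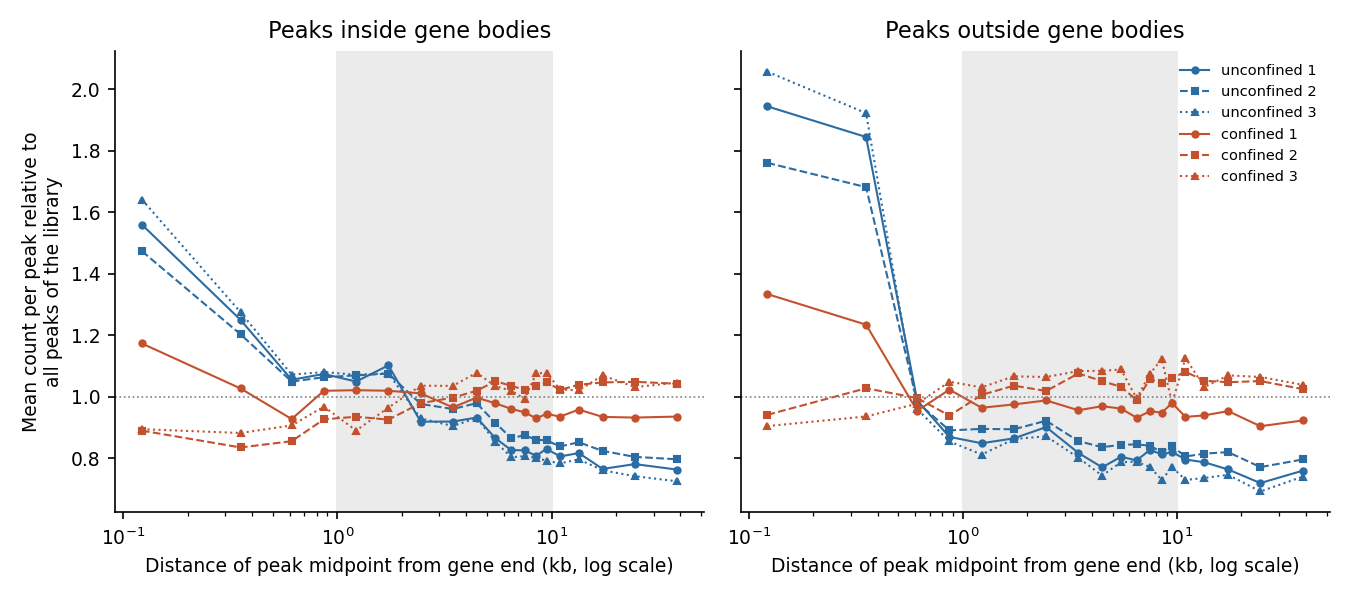
Level of peaks (mean count per peak relative to all peaks of the library) against distance of the peak midpoint from the gene end (kb, log scale), inside gene bodies on the left and outside on the right, with the span of 1 to 10 kb shaded. Each line is 1 library. The unconfined lines (blue) fall with distance to 0.875 or less past 6 kb, confined library 1 falls less, and confined libraries 2 and 3 stay between 0.835 and 1.13 across the distances drawn.

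The strand was known for the genes of 8474 flanking peaks (79.1%), which were split by the end they neighbour. Peaks upstream of the start (1891) held 3.77% ± 0.112 of counts unconfined and 4.52% ± 0.209 confined. Peaks inside the gene body on the side of the start (2826) held 6.88% ± 0.0252 and 6.58% ± 0.110. Peaks inside the gene body on the side of the end (1775) held 3.29% ± 0.232 and 4.20% ± 0.265, and peaks past the end (1982) held 3.94% ± 0.179 and 4.79% ± 0.238. None of the 4 comparisons overlapped between groups (exact permutation p = 0.1 each). The stretch inside the gene near its start was thus the 1 of the 4 with a lower share in each confined library.

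Flanking and gene-end peaks were next compared over the same set of genes, with counts pooled across them. This holds the gene set fixed but does not compare peaks within single genes, so genes with many counts weigh most. In the 4131 genes with both kinds (6478 flanking and 4580 gene-end peaks), flanking peaks took 45.6%, 48.5% and 44.4% of their summed counts unconfined against 55.4%, 61.7% and 62.1% confined. The means were 46.2% ± 2.11 and 59.7% ± 3.75 (SD, n = 3; exact permutation p = 0.1), higher in each pair. By number, flanking peaks are 58.6% of these peaks, so confined libraries lay near the share that equal levels would give. Over tested peaks, the mean log2 CPM of flanking minus gene-end peaks was -0.30, -0.32 and -0.41 unconfined and -0.02, 0.16 and 0.21 confined, a shift of 0.46. Against peaks beyond 10 kb, the mean difference was 0.13 ± 0.01 unconfined and -0.05 ± 0.06 confined, a shift of -0.18 (exact permutation p = 0.1 for both shifts).

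The unconfined ranking of flanking peaks was kept less in confined libraries. The 1070 flanking peaks highest in unconfined libraries had 6.43, 3.99 and 6.71 times the mean count of the 1070 lowest in unconfined libraries 1 to 3, where the ranking left out the library measured. In confined libraries 1 to 3, with the ranking taken from all 3 unconfined libraries, the ratio was 2.50, 1.12 and 1.01. The exact permutation p was 0.1. It does not test a difference between the groups, because unconfined libraries alone set the ranking and it was not redone when labels were permuted. In confined library 1 the peaks that are strongest in unconfined cells were still the higher ones. In confined libraries 2 and 3 they were close to the weakest peaks.

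The members were next split by whether they held an annotated start. The 1018 peaks with a start had levels of 1.42, 1.37 and 1.49 unconfined, above the average peak, against 1.13, 0.930 and 0.896 confined. Their share of counts was 3.41% ± 0.136 unconfined and 2.35% ± 0.298 confined. The 9691 peaks without a start had levels of 0.826, 0.869 and 0.800 unconfined and 0.959, 1.02 and 1.05 confined, and their share was 18.9% ± 0.800 and 23.0% ± 1.05 (SD, n = 3). The 2 kinds moved in opposite directions in each of the 3 pairs, and with confined library 1 alone the differences were -0.718 and 2.90 points. The difference between the kinds, as mean log2 CPM of tested peaks with minus without a start, was 0.26 ± 0.06 unconfined and -0.17 ± 0.10 confined, a shift of -0.43 (exact permutation p = 0.1).

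Flanking peaks with a start differed further by CpG class. The 682 peaks with a CpG-rich start had levels of 1.59, 1.50 and 1.68 unconfined and 1.15, 0.867 and 0.818 confined, and their share of counts was 2.54% ± 0.145 and 1.51% ± 0.283 with no overlap (exact permutation p = 0.1). The 336 peaks with a CpG-poor start had levels of 1.09, 1.12 and 1.10 unconfined and 1.09, 1.06 and 1.05 confined, and their shares of 0.868% ± 0.0139 and 0.842% ± 0.0150 overlapped (exact permutation p = 0.2). CpG-rich minus CpG-poor was 0.31 ± 0.06 log2 CPM unconfined and -0.14 ± 0.17 confined, lower in each pair, a shift of -0.45 (exact permutation p = 0.1) that was -0.26 with confined library 1 alone. Between CpG-poor starts and peaks without a start the shift was -0.10 (exact permutation p = 0.2). At gene ends both classes had a lower confined share without overlap. It was 25.3% ± 1.87 and 13.6% ± 3.13 for CpG-rich starts, and 4.73% ± 0.0947 and 3.90% ± 0.404 for CpG-poor ones. Base composition moves with the split of flanking peaks (median GC of 64.3% in the CpG-rich and 54% in the CpG-poor windows). The unconfined level moves with it too, and the part of neither was tested.

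**Figure D3:**
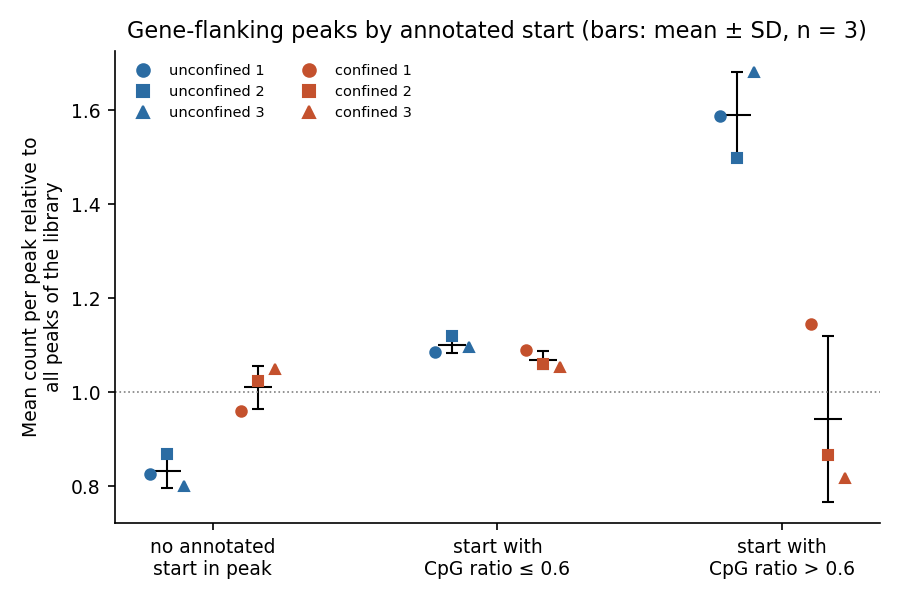
Level of flanking peaks (mean count per peak relative to all peaks of the library) by whether they hold an annotated start and by its CpG ratio. Each point is 1 library, blue unconfined and red confined, and black bars are mean ± SD of 3 libraries. Peaks with a CpG-rich start drop from 1.50 to 1.68 unconfined to 0.818 to 1.15 confined, peaks with a CpG-poor start lie at 1.05 to 1.12, and peaks without a start are under 0.87 in each unconfined library and at 0.959 or more in each confined one.

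The 6 starts printed above were chosen by their unconfined level, so a lower confined value in them supports nothing, and their confined means were lower in both CpG classes. The Snhg8 peak had 42, 131 and 122 counts unconfined against 16, 10 and 1 confined (264 ± 19.3 and 112 ± 75.1 scaled CPM). The Gm38882 peak had 34, 115 and 118 against 4, 4 and 2, and was the 1 of the 6 that passed the test across peaks. The CpG-rich 1700113A16Rik peak, beyond the end of Mef2d, had 198 ± 19.2 and 145 ± 3.60 scaled CPM. The CpG-poor Mir22hg peak, 6606 bp from Wdr81, had 47, 167 and 163 against 20, 6 and 5 (326 ± 11.1 and 138 ± 29.9), with an adjusted p of 0.0501 by edgeR. The CpG-poor Gm13842 peak had 211 ± 41.5 and 166 ± 56.0 scaled CPM and the CpG-poor Gm39087 peak 165 ± 25.6 and 109 ± 69.6, with overlapping groups in both.

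Single peaks were tested with edgeR's quasi-likelihood test across the 9084 peaks with the highest mean level, which include 1910 flanking peaks (17.8% of them; 1200 inside and 710 outside gene bodies). The other 8799 flanking peaks were too low to enter. Values for a peak are CPM of counts in tested peaks, scaled by the trimmed mean of M values (TMM), and called means an adjusted p under 0.05. In confined cells 142 flanking peaks were higher and 31 lower. This is 7.43% and 1.62% of those tested, beside 5.09% higher and 2.74% lower over the whole tested set. That set holds 4451 gene-end peaks, with 1.19% higher and 4.36% lower. Peaks beyond 10 kb had 9.81% higher and 0.881% lower, so flanking peaks lay between these classes. Outside gene bodies, 11.1% of flanking peaks and 11.6% of peaks beyond 10 kb were higher. Flanking peaks had a median log2 fold change of 0.20, and the whole set had 0.01. Outside gene bodies 79 of 710 were higher and 9 lower, and inside 63 of 1200 were higher and 22 lower.

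The balance between higher and lower depends on the scale. The tested peaks held 42.4% to 50.3% of an unconfined library's counts against 25.4% to 34.7% of a confined one's, and TMM sets their typical change to 0. Scaled by total counts instead, the median over all tested peaks was -0.57, and 92 flanking peaks were higher and 319 lower, with a flanking median of -0.38. The shares of all tested peaks called under this scaling are not given. The 92 and 319 therefore do not compare flanking peaks with other peaks. With no filter on low peaks, 176 of 10709 flanking peaks were higher and 276 lower, beside 1.47% higher and 4.27% lower over all 42632 peaks. Each direction below is therefore relative to the typical tested peak.

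The calls also lean on 1 library. Without confined library 2, 26 flanking peaks were higher and 1 was lower, and without confined library 1 there were 241 and 86. With confined library 1 alone there were 9 and 1, where the spread comes from the unconfined libraries and the lone library is assumed to vary as they do, so these counts do not show how well the calls hold. With the batch number as a block, 133 were higher and 10 lower. Leaving out a library changes which peaks are tested, and shares over all tested peaks are not given for the runs in this paragraph. Their counts therefore do not compare flanking peaks with other peaks. In the main fit the groups did not overlap in 123 of the 142 higher calls and in each of the 31 lower calls. Being called itself favours this, and the share over all tested peaks is not given. It therefore does not show how well the calls hold.

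Among the called peaks, the higher calls had low counts and the lower calls had high counts. Thin confined counts and the filter favour this. Medians over all tested flanking peaks are not given, so the values describe the calls alone. A higher call had a median of 51.5 counts summed over the unconfined libraries and 31 over the confined ones, and a lower call had 223 and 15. Lower calls lay nearer to the gene end (median 2087 bp, against 4017 bp for higher calls). The median over all flanking peaks, tested or not, was 4324 bp. Of the 401 tested peaks with a start 7 were higher and 13 lower, and of the 1509 without one 135 were higher and 18 lower.

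**Figure D4:**
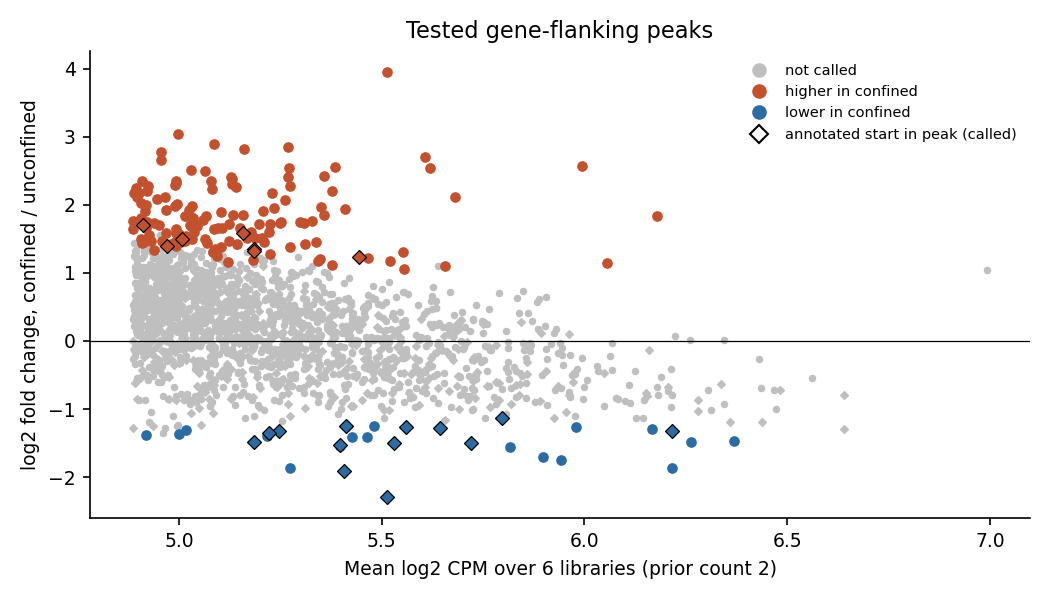
Fitted log2 fold change (confined over unconfined, vertical axis) against mean log2 CPM over the 6 libraries for the 1910 tested flanking peaks. Red points are the 142 called higher, blue the 31 called lower, grey those not called, and diamonds hold an annotated start. The higher calls reach 3.95 and crowd at low mean levels, and the lower calls reach -2.29.

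The lower calls outside gene bodies named here are 9, all of those called. The strongest was the Gm38882 peak shown above, 6904 bp past the end of Zfp239, a zinc finger protein gene: 232 ± 12.6 scaled CPM unconfined and 53.8 ± 19.2 confined, a log2 fold change of -2.29 ± 0.44 (SE, edgeR adjusted p = 0.00113). The peak 7570 bp past the end of Ccl3, which encodes an inflammatory chemokine, had 56, 126 and 147 counts unconfined and 13, 4 and 2 confined (log2 fold change -1.75). The peak over the start of Ccl3 itself went the other way, at 1.38 with an edgeR adjusted p of 0.0336, though its groups overlapped (62.6 ± 23.2 and 175 ± 89.9 scaled CPM). The peak 1563 bp past the end of Btg2, an antiproliferative gene induced early by stress, had 49, 146 and 162 against 17, 2 and 2, a log2 fold change of -1.70 ± 0.42 (edgeR adjusted p = 0.0105). The peak over the Btg2 start fell with it, at -1.28 (edgeR adjusted p = 0.0488, and 0.0519 with the batch block). Both peaks of Btg2 thus had lower values in each confined library than in any unconfined one.

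The peak 2087 bp upstream of Mknk2, a kinase that phosphorylates the cap-binding translation factor eIF4E, had 66, 164 and 177 counts unconfined and 20, 5 and 4 confined (log2 fold change -1.46), and the peak over its start fell by 1.53. The peak 3288 bp upstream of Mef2d, a MADS-box transcription factor gene, had 29, 90 and 104 against 12, 4 and 0. The others were linked to Rbm38 (-1.54), an RNA-binding protein gene, to Dad1 (-1.29), a subunit of the oligosaccharyltransferase that glycosylates new proteins, to B4galnt2 (-1.25), a glycosyltransferase gene, and to Arhgap45 (-1.25). In each of the 9, every confined library lay below every unconfined one, which being called itself favours. With the batch block, adjusted p-values rose past the threshold for Mknk2 (0.0771), Mef2d (0.0625), Dad1 (0.126), B4galnt2 (0.0790) and Arhgap45 (0.0542).

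Inside gene bodies 22 peaks were lower, and the 10 with the smallest p are named. The peak 1565 bp into Kat6b, a histone acetyltransferase gene, had 80, 197 and 243 counts unconfined and 25, 3 and 1 confined, a log2 fold change of -1.87 ± 0.48 (edgeR adjusted p = 0.0143). It had the highest unconfined level of the 10, at 476 ± 87.3 scaled CPM against 95.6 ± 95.3. The peak 1442 bp into Mnt, which encodes a MAX-binding repressor that opposes MYC, had 23, 105 and 72 against 5, 3 and 2 (log2 fold change -1.86). A peak over a start of Tsga10, a testis-expressed gene, had 25, 118 and 124 against 10, 1 and 2 (-1.90). The confined counts of Mnt and Tsga10 are 10 or fewer in each library.

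The Gata2 peak at chr6:88202878-88203577 (mm10) lies inside the gene, 3805 bp before its end. Gata2 encodes a zinc finger factor that stem cells need, and its gene body is known to hold an enhancer active in them, to which this peak was not matched. It had 23, 95 and 99 counts unconfined and 10, 3 and 2 confined, or 182 ± 24.8 and 64.3 ± 15.5 scaled CPM, a log2 fold change of -1.41 ± 0.39 (SE, edgeR adjusted p = 0.0232). With the batch block the adjusted p was 0.0793. Peaks over a start within Pkd1 (-1.50), the polycystin gene, and Cirbp (-1.49), which encodes a cold-inducible RNA-binding protein, were lower, as were peaks over noncoding starts inside Bicra (-1.50), a subunit gene of a BAF remodelling complex, and Vsig10l (-1.53). The remaining 2 were linked to Pebp4 (-1.55) and Phospho1 (-1.41), and the latter lies inside the neighbouring gene Abi3. With the block, edgeR's adjusted p was also past the threshold for Pkd1 (0.0625), Bicra (0.0515) and Phospho1 (0.0517).

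These lower calls rest on confined library 2 in particular. Without it 1 of the 19 named (Zfp239) kept an adjusted p under 0.05, and the other 18 had adjusted p-values of 0.0563 to 0.185 with log2 fold changes still between -2.55 and -1.10 over the 19. Without confined library 1 the calls for Arhgap45, B4galnt2 and Rbm38 were lost (adjusted p 0.0797 to 0.110), and without confined library 3 those for Arhgap45, B4galnt2, Cirbp, Mef2d and Phospho1 (0.0619 to 0.0890). Without unconfined library 3 those for Arhgap45, Dad1, Gata2, Kat6b, Mef2d and Mknk2 were lost (0.0511 to 0.135). Without unconfined library 2 those for B4galnt2, Dad1 and Mknk2 were lost (0.0644 to 0.0888), and without unconfined library 1, where 18 were tested, those for Dad1 and Mknk2 (0.0587 to 0.0666). By limma-voom 5 of the 19 were called (Zfp239, Ccl3, Btg2, Kat6b and Vsig10l) and the other 14 had adjusted p-values of 0.0502 to 0.0775, while DESeq2 lost Arhgap45 and B4galnt2 and filterByExpr lost Arhgap45. With confined library 1 alone, Zfp239 was called and the other 18 had adjusted p-values of 0.0813 to 0.285, with no sign turned.

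**Figure D5:**
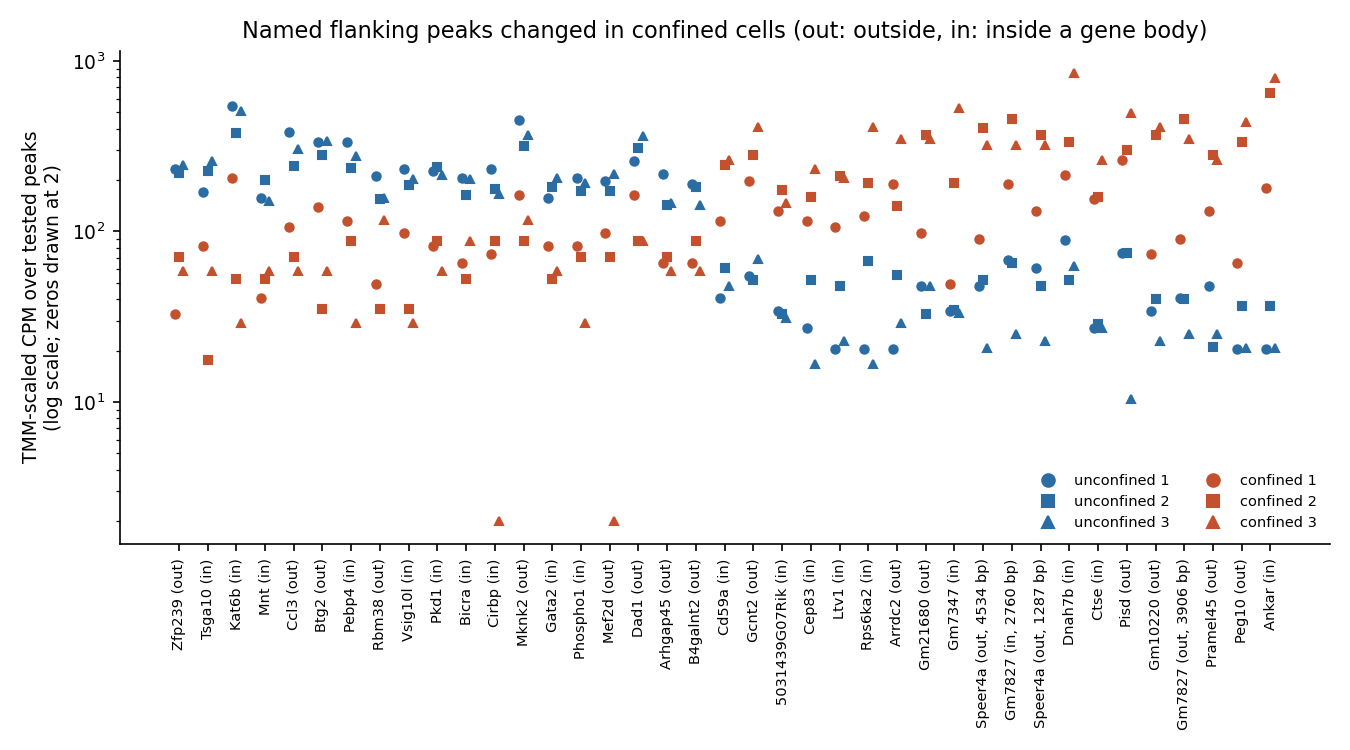
Scaled CPM (log scale, zeros drawn at 2) of the 39 named flanking peaks called lower (left) or higher (right), 1 point per library, blue unconfined and red confined. Peaks are ordered by fold change. The groups do not overlap in any of them, which the choice of called peaks favours. The confined points spread widely, for instance from 180 to 788 for Ankar.

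The higher calls named here start from few counts in the unconfined libraries. The largest fold change was in a peak 4117 bp inside Ankar, an ankyrin and armadillo repeat gene, with 3, 19 and 10 counts unconfined and 22, 37 and 27 confined. This is 25.9 ± 9.13 against 539 ± 319 scaled CPM, a log2 fold change of 3.95 ± 0.40 (SE, edgeR adjusted p = 1.67e-08). The peak 9988 bp inside Dnah7b, an axonemal dynein gene with near-identical neighbours, had 13, 27 and 30 against 26, 19 and 29 (2.57). Confined library 3, with the fewest counts in all, had about as many there as unconfined library 3. The peak inside Ctse, which encodes the protease cathepsin E, had 4, 15 and 13 against 19, 9 and 9 (2.67). Others inside genes were linked to Rps6ka2 (2.35), a ribosomal S6 kinase gene, Cd59a (1.76), a complement regulator, Ltv1 (2.25), a ribosome assembly factor, Cep83 (2.18), a centriole gene, and 5031439G07Rik (2.18).

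Outside genes, the peak 2104 bp past the end of Pisd, which encodes the mitochondrial phosphatidylserine decarboxylase, had 11, 39 and 5 counts against 32, 17 and 17, or 53.3 ± 37.2 and 352 ± 126 scaled CPM (log2 fold change 2.70 ± 0.38, edgeR adjusted p = 2.42e-05). Pisd has pseudogene copies, so this value is uncertain. The peak past the end of Gcnt2, a glycan-branching enzyme gene, had 8, 27 and 33 against 24, 16 and 14 (2.12). The peak past the end of Arrdc2, an arrestin-domain gene, had 3, 29 and 14 against 23, 8 and 12 (2.37). The peak beyond Peg10, an imprinted gene derived from a retrotransposon, had 3, 19 and 10 against 8, 19 and 15 (3.04). The floor of 3 counts corresponds to 2.44 to 9.84 CPM of the unconfined library totals and to 8.80 to 23.4 CPM of the confined ones. The 3 counts of Ankar, Arrdc2, Peg10, Rps6ka2 and Ltv1 in unconfined library 1 are at that floor.

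A peak can enter the test through high confined values alone, so the higher calls named here are values and not support for a direction. Without confined library 2, 12 of the 20 named higher peaks were high enough to test and 9 of them were called. The calls for Cd59a, Speer4a and 1 Gm7827 peak were lost there (adjusted p 0.0548 to 0.0827). Without confined library 3, 10 were tested and called, and without confined library 1, 16 were tested and called. With confined library 1 alone 4 were high enough to test. With the batch block the 20 kept their calls, limma-voom lost Gm7347 (adjusted p = 0.0955), and without a filter Cd59a was lost (0.124).

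A part of the higher calls sat in tandem gene clusters, which were noted after the values were seen. The 11 tested flanking peaks between 25933579 and 26112742 of chromosome 5, among Speer genes and predicted genes, were called higher (log2 fold change 1.85 to 2.82). So were the 6 tested at the Pramel genes of chromosome 5 and the 8 tested among vomeronasal receptor genes between 20199537 and 20735575 of chromosome 7. The mean level of the 12 Speer cluster peaks was 1.08, 0.826 and 0.657 unconfined and 1.18, 3.45 and 3.82 confined. Confined library 1 differed little there from unconfined library 1, and confined libraries 2 and 3 were at more than 3 times the average peak. Named peaks of this kind are those of Speer4a, Gm10220, Gm21680, Gm7347, Gm7827 and Pramel45, with log2 fold changes of 2.43 to 2.90. These genes have near-identical copies among which the authors' counting could have split or shared reads, so their values are uncertain. Among tested flanking peaks linked to genes with predicted or multi-copy family names, 32 of 67 (47.8%) were higher and 0 lower by edgeR, with 0 lower at an unadjusted p under 0.05 and by DESeq2 and limma-voom. Among the others, 110 of 1843 (5.97%) were higher and 31 lower. Of the 292 flanking peaks linked to genes with such names, 67 were high enough to test. High confined values alone can admit a peak to the test, and the lack of lower calls can follow from that. These counts and those of the clusters therefore support no direction and no contrast between the 2 kinds of gene.

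The strongest flanking peaks of unconfined cells were described whatever their test gave, and since their unconfined level chose them, they support no direction. Outside genes they include the Ccl3, Mknk2, Btg2, Dad1 and Mir22hg peaks above. The Slc7a15 peak had 317 ± 45.3 and 127 ± 110 scaled CPM (edgeR adjusted p = 0.126), the Dyrk3 peak 315 ± 74.5 and 177 ± 62.5 (0.209) and the Lrrc6 peak 304 ± 3.44 and 204 ± 54.8 (0.330). Inside genes the peak over starts of Sin3a and 2700012I20Rik had 66, 250 and 236 counts unconfined and 35, 6 and 3 confined (edgeR adjusted p = 0.0619), where Sin3a encodes the scaffold of a histone deacetylase complex. The peak inside Fbxl19, whose protein binds CpG islands, was called lower at -1.49 (edgeR adjusted p = 0.0297, and 0.0800 with the batch block). Peaks at Map3k12 (0.0594), Sp2 (0.0995), Grik5 (0.105), Trim45 (0.173) and Ing1 (0.232) were not called.

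The gene lists hold few tested peaks each, so their counts are given beside the 5.09% higher and 2.74% lower over the whole tested set and support no direction. Among the 25 of 30 stem cell factor genes with a flanking peak, 69 peaks were present and 12 were tested. The Gata2 peak was lower (8.33% of those tested) and 0 were higher, with a median log2 fold change of -0.21. Without a filter 1 was higher and 1 lower, with a median of 0.07. The Runx1 peak, 3668 bp into the gene of a master factor of blood stem cells, had 40, 121 and 137 counts against 22, 9 and 3 (263 ± 27.7 and 142 ± 48.4 scaled CPM) and was not called (edgeR adjusted p = 0.173). The Cbfa2t3 peak, upstream of a corepressor gene of the same network, had 139 ± 11.2 and 113 ± 52.0. Of the surface marker and receptor genes of stem cells 24 flanking peaks were present, 5 were tested and 0 were called by edgeR, DESeq2 or limma-voom, and 0 of them had an unadjusted p under 0.05. The Procr peak (EPCR, a stem cell marker) had 168 ± 13.0 and 195 ± 110 scaled CPM, and the Fgd5 peak 105 ± 28.0 and 108 ± 72.6. Both overlapped between groups.

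Early-response genes, which are switched on within minutes of many signals, had 47 flanking peaks, of which 30 were tested. The Btg2 peak was lower and a Dusp5 peak was higher (3.33% each), and the median was -0.03. Without a filter 0 of the 47 were higher and 5 lower, with a median of -0.59. Dusp5 encodes a phosphatase that turns off ERK, and its peak 5933 bp past the gene had 5, 28 and 19 counts against 12, 17 and 5 (log2 fold change 1.89, edgeR adjusted p = 0.00455). Peaks at Ier3 (183 ± 5.31 and 205 ± 31.0 scaled CPM) and Zfp36 (187 ± 26.2 and 156 ± 48.9) were not called. Of 7 tested peaks at KLF and SP genes, that 1993 bp inside Klf4 was higher (10, 25 and 48 against 10, 12 and 15, log2 fold change 1.30, edgeR adjusted p = 0.0355), with groups that overlapped. The Klf9 peak, at 179 ± 42.1 and 102 ± 46.8 scaled CPM, and the Sp2 peak above were not called. At an unadjusted edgeR p under 0.05, 1 of the 7 was higher and 3 were lower. Without a filter 0 KLF and SP peaks were called higher and 3 lower.

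Of Hippo pathway genes, which act on YAP and TEAD, 1 peak was tested, that in Mob1b, a LATS kinase cofactor, and it was higher (14, 27 and 30 against 14, 11 and 5, log2 fold change 1.17, edgeR adjusted p = 0.0417, and 0.0859 with the block). Adhesion genes had 48 peaks, 9 tested and 0 called by edgeR, DESeq2 or limma-voom (2 higher and 0 lower at an unadjusted p under 0.05), and edgeR without a filter called 2 higher and 1 lower. The Itga5 peak, of the fibronectin receptor subunit, was at 128 ± 31.2 and 180 ± 11.5, and the Fermt3 peak, of the integrin activator kindlin, at 80.2 ± 4.63 and 120 ± 28.0.

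Nuclear envelope genes had 25 peaks, 8 of them tested. A peak past the end of Tmpo, a lamina-associated protein gene, was higher (6, 17 and 27 counts against 12, 6 and 7, log2 fold change 1.47, edgeR adjusted p = 0.0480). The Syne3 peaks, of a nesprin gene, had 123 ± 26.9 and 90.8 ± 22.4, and 126 ± 22.2 and 70.2 ± 11.8 scaled CPM, and were not called. Heterochromatin and Polycomb genes had 5 tested peaks and 0 called by edgeR, DESeq2 or limma-voom, with 0 at an unadjusted p under 0.05. Among these the Dnmt1 peak, of the maintenance DNA methyltransferase, was at 96.3 ± 1.33 and 96.3 ± 40.9, and the Phc1 peak at 94.0 ± 14.0 and 126 ± 42.4. The peak in Mnt was the lower call among 7 tested cell cycle peaks, and a Skil peak was the higher call among 7 at cytokine signalling genes (5, 23 and 22 against 10, 11 and 4, log2 fold change 1.50, edgeR adjusted p = 0.0444). Skil encodes a repressor of SMAD signalling. The higher calls of these lists (Dusp5, Klf4, Mob1b, Tmpo and Skil) were not called by limma-voom or by edgeR without a filter, and the calls for Gata2 and Mnt were not made by limma-voom. Without a filter edgeR called 0 peaks higher in the Hippo, nuclear envelope, cell cycle and cytokine lists. It called 1, 2, 2 and 1 lower in that order.

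Flanking peaks of lineage genes were mostly too low to test. Erythroid and megakaryocyte genes had 12 peaks with 1 tested, granulocyte and monocyte genes 20 with 3 tested, T and NK cell genes 12 with 2 tested, and B cell genes and stromal genes had 10 and 18 with 0 tested. None of the tested peaks was called by edgeR, DESeq2 or limma-voom, while edgeR without a filter called 1 T and NK cell peak and 1 stromal peak higher. In the filtered fit 1 T and NK cell peak was higher at an unadjusted p under 0.05. It lay upstream of Klrb1c, which encodes NK1.1, and had 8, 24 and 31 counts unconfined and 16, 5 and 4 confined (edgeR adjusted p = 0.0923). The Cebpe peak, of a granulocyte factor, had 177 ± 29.1 and 135 ± 76.5 scaled CPM, and the Gata3 peak 141 ± 31.3 and 124 ± 14.4. In the Pax5 peak the counts were 15, 27 and 21 against 5, 3 and 4, too few to enter the test.

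Genes with the most flanking peaks were Gpr132 with 9, Adgrg1 and Irf2 with 8 each, and Adgre5, Ptp4a3 and Rcsd1 with 7 each. The peaks of Gpr132, a G protein-coupled receptor gene of blood cells, summed to 35, 186 and 133 counts unconfined and 70, 47 and 24 confined. As CPM this is 134 ± 18.3 and 202 ± 13.0, higher in each confined library than in each unconfined one. The peaks of Adgrg1 (GPR56), an adhesion receptor marking stem cells, summed to 147, 458 and 412 against 113, 53 and 21, or 424 ± 55.0 and 245 ± 84.0 CPM, lower in each confined library. Irf2, the gene of a factor that limits interferon signalling, was at 200 ± 6.04 and 159 ± 30.5. Each of these 3 comparisons reached the smallest exact permutation p of 0.1, unadjusted. The share of all genes that reach it was not taken, so neither this p nor a lack of overlap sets any of these genes apart. The Ptp4a3 peaks summed to 197, 186 and 179 CPM against 138, 176 and 46.8, without overlap. For Adgre5 (149 ± 24.1 and 169 ± 34.0) and Rcsd1 (164 ± 9.26 and 163 ± 47.4) the groups overlapped.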

How the data were processed

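ATAC-seq counts of 6 libraries (3 unconfined, 3 confined) over 42632 peaks were used as the authors deposited them, as whole-number raw counts per peak. Per the submitters' processing notes, tools included SAMtools 1.14, featureCounts and R 4.2.0 with the mm10 build; the sources used here do not give which step each served, the aligner, the peak caller or the libraries that peaks were called on. Which libraries entered peak calling can affect which sites are listed.

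Peaks were placed against the ends of 21900 RefSeq coding genes (mm10), from a table that gives gene spans but not exons, and matched to RefSeq starts (windows of 250 bases before and 50 after). Counts were tested with edgeR 4.0.16 (quasi-likelihood, TMM, Benjamini-Hochberg, threshold 0.05) over the 9084 peaks with the highest mean log2 CPM (prior count 2), as many as filterByExpr keeps. A peak can pass this limit through high values in 1 group. Shares, levels and class differences were compared over library values by exact two-sided permutation, whose smallest p is 0.1. On simulated counts, the edgeR step recovered 20% of 2-fold and 80% of 4-fold changes among 9084 peaks, with 4 of 8884 unchanged peaks called. These figures hold for the simulated counts alone. In the real counts the number of calls moved widely when single libraries were left out. The figures therefore do not show how well the calls hold.

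The labels' batch number pairs the libraries; deviations from the group means correlated at -0.0161, 0.0214 and -0.0917 within pairs. Named peaks are, in each direction and on each side of the gene boundary, up to 10 calls with the smallest p that moved the same way in 3 pairs, the 8 highest unconfined peaks on each side, up to 2 peaks per gene list, and the genes with the most flanking peaks. Klf4, Dusp5, Skil and Tmpo were added after their values were seen, as the calls of their lists, and so were the 6 printed starts and the tandem gene clusters. The members, the 16 gene lists and the tests were chosen with earlier results of these data known. The result of 1 of the lists is not reported here. Scaling, filter, tool, block, distance limit and leave-one-out alternatives were run with R 4.3.3, DESeq2 1.42.0, limma 3.58.1, Python 3.11.15 and SciPy 1.17.1. The p-values cover the spread between these libraries, and the floor of 3 counts covers counting error only.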

Additional observations from a re-analysis of the deposited data

How the results depend on the processing

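Against 142 higher and 31 lower flanking peaks, total-count scaling gave 92 and 319, limma-voom 58 and 5, and confined library 1 alone 9 and 1. No filter gave 276 lower, a mean count of at least 10 gave 74 lower, and the replicate block gave 10 lower. Leaving out 1 library at a time gave 26 to 241 higher and 1 to 86 lower peaks, with the lowest of both without confined library 2 and the highest of both without confined library 1. Without confined library 3 there were 85 higher and 20 lower, and without unconfined libraries 2 and 3 there were 20 and 14 lower. The cause of these moves was not tested, except that a no-filter run tests more peaks. Most of these counts stand without the share over all tested peaks, so they do not compare flanking peaks with others. With DESeq2, size factors by relative log expression and filterByExpr, both counts were within 1.5 times of these.

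The difference in the share of counts (3.01 points) was 0.990 for 1 to 5 kb, 5.90 for 1 to 20 kb, 5.77 with the ends of every annotated gene, 2.18 with confined library 1 alone and 2.68 to 3.42 leaving out 1 library. As paired differences over the batch number (the replicate block) it was 3.01 with an exact sign-flip p of 0.25, the smallest that 3 pairs allow. Inside gene bodies (1.05) it was 0.00196 for 1 to 5 kb, 1.44 for 2 to 10 kb, 2.57 for 1 to 20 kb and 2.95 with every gene. Outside (1.95) it was 0.988, 3.33 for 1 to 20 kb, 2.82 with every gene and 1.37 with confined library 1 alone. Over all peaks rather than tested ones, the class shifts were 0.67 (flanking minus gene end), -0.68 (with minus without a start), -0.67 (CpG-rich minus CpG-poor) and -0.23 (CpG-poor minus no start). With confined library 1 alone, the CpG shift was -0.26 and the share differences were -0.718 with and 2.90 without a start. The CpG limit of 0.6 and the split by starts were chosen after seeing the data. None of the share differences and class shifts in this paragraph changed sign in these runs. Other results did turn. The balance of higher and lower calls turned with total-count scaling and with no filter, and the flanking median turned with total-count scaling. The share difference inside gene bodies at 1 to 2 kb went from -0.387 to 0.0417 points without peaks that hold a start, where the groups overlapped. Depth limits single peaks most, with a median of 3 to 7 counts in the confined libraries.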
